A study of Mus musculus with 6 samples.

Results

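The 10 genes described here control the mitochondrial pathway of apoptosis: 9 members of the BCL2 family and Apaf1. They were followed in ureteric bud cells of embryonic mouse kidneys at E15.5. The 10 were listed by name, and each was read from a probe set that carries its symbol alone. For a gene with several such probe sets, that with the highest average over the 6 arrays is used. Each of the 10 had exactly 1, so all 10 were measured, among 19296 genes in all. Of these, 4 are pro-survival (Bcl2, Bcl2l1, Bcl2l2 and Mcl1) and 6 are pro-death (Bcl2l11, Bmf, Bid, Bad, Bak1 and Apaf1).

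The mutant cells (3 arrays) carried Dicerc/-; Hoxb7Cre; Rosa26YFP, that is, a conditional and a null Dicer allele, a Cre transgene under a Hoxb7 promoter that is active in the ureteric bud, and a YFP reporter of Cre activity. The control cells (3 arrays) are given as wild type, and whether they carried Hoxb7Cre and Rosa26YFP is not stated, although cells of both groups had been sorted on YFP after trypsin. The null allele does not depend on Cre, and an effect of Cre itself was not separated from that of the Dicer mutation. Both groups had a mixed strain background. The labels call the arrays biological replicates without giving the number of embryos behind each, so each p-value reflects variation among these 6 arrays, which may be technical. Expression was read on Affymetrix whole-transcript arrays and is given as RMA values, a background-corrected and normalised probe set signal on the log2 scale, on which a difference of 1 is a 2-fold change. The comparison addresses how transcripts of the death machinery differ between Dicer mutant and control bud cells. Dicer is the enzyme that cuts hairpin precursors into mature miRNAs.

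In the mitochondrial pathway, pro-survival BCL2 proteins hold the effector proteins BAK and BAX inactive. BH3-only proteins, which share a single short BCL2 homology domain, answer stress signals by binding the pro-survival proteins or the effectors. When the effectors open the outer mitochondrial membrane, cytochrome c is released and binds APAF1, which assembles into the apoptosome and activates caspase-9. Bcl2 is needed in kidney development: mice without it have small, cystic kidneys, which are rescued by loss of Bcl2l11.

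Several of the 10 genes are reported targets of miRNAs whose maturation requires Dicer, and the mature sequences are shown because the mutation acts on this step. Mature miRNA levels were not analysed here. Sequences are from RefSeq (GRCm38.p6), written 5′ to 3′ with the seed, bases 2 to 8, in capitals. The first 4 belong to the families of the miR-17 cluster and its paralogs and are reported in mouse to target Bcl2l11. The next 2 are reported to target Bmf, and the last 3 Bcl2, Mcl1 and Bak1 in that order, all from work on human cells.
mmu-miR-17-5p: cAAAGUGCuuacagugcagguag
mmu-miR-106b-5p: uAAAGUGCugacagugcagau
mmu-miR-92a-3p: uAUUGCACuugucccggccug
mmu-miR-25-3p: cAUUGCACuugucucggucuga
mmu-miR-221-3p: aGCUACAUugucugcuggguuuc
mmu-miR-222-3p: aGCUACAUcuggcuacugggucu
mmu-miR-16-5p: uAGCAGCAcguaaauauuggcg
mmu-miR-29b-3p: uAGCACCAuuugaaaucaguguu
mmu-miR-125b-5p: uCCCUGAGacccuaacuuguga
The Bcl2l11 miRNAs fall into 2 seed families, AAAGUGC for mmu-miR-17-5p and mmu-miR-106b-5p and AUUGCAC for mmu-miR-92a-3p and mmu-miR-25-3p. mmu-miR-221-3p and mmu-miR-222-3p share the seed GCUACAU.

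Array medians over 23309 probe sets were 7.49, 7.51 and 7.47 in mutant replicates 1 to 3, against 7.54, 7.51 and 7.53 in control replicates 1 to 3. No mutant median was above a control median, so small decreases share the direction of this shift. Dicer1, the targeted gene (probe set 10402444), read 9.80, 9.72 and 9.64 in mutant replicates 1 to 3, against 10.31, 10.38 and 10.25 in control replicates 1 to 3. It was lower in every mutant array (log2 fold change -0.59, limma adjusted p = 0.0005), at 66.3% of the control signal. How far Dicer was lost was not tested. All 14 markers of the ureteric bud lay above the median gene in mean brightness, 7.52, and of them 1 rose and 7 fell in the mutant cells. Their summed signal on the linear scale was 48498 to 49963 in mutant arrays, against 55151 to 56059 in control arrays. Their median log2 fold change was -0.17, with Wnt9b at 1.42 and Wnt11 at -0.60. The part of this difference in the results for the 10 genes was not tested. By limma with Benjamini-Hochberg adjustment over all genes, at a threshold of 0.05, 25.8% of the 19296 genes changed, 11.8% higher and 13.9% lower in the mutant cells. Among genes above the median brightness, where 8 of the 10 genes lie, 39.6% passed, 19.3% higher and 20.3% lower. Among genes below it, where Bcl2l2 and Bad lie, 11.9% passed, 4.36% higher and 7.59% lower. The median log2 fold change over all genes was -0.05.

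Of the 10 genes, 8 passed in limma's test, against 25.8% of all genes, with 4 higher and 4 lower in the mutant cells. Bcl2l11, Bmf and Apaf1 rose by 1.75-fold to 2.50-fold. Bcl2, Bid, Bad and Bak1 fell to between 76.6% and 80.5% of the control signal, and Mcl1 rose by 1.14-fold. Bcl2l1 and Bcl2l2 did not pass. The arrays of the groups did not overlap for 9 of the 10 genes, against 42.5% of all genes, 18.3% with the mutant arrays higher and 24.1% with them lower. The genes were chosen with earlier results of these arrays known, so the share of 8 in 10 is a description. In such sorted samples, fewer cells of a type and less RNA per cell cannot be told apart.

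**Figure D1:**
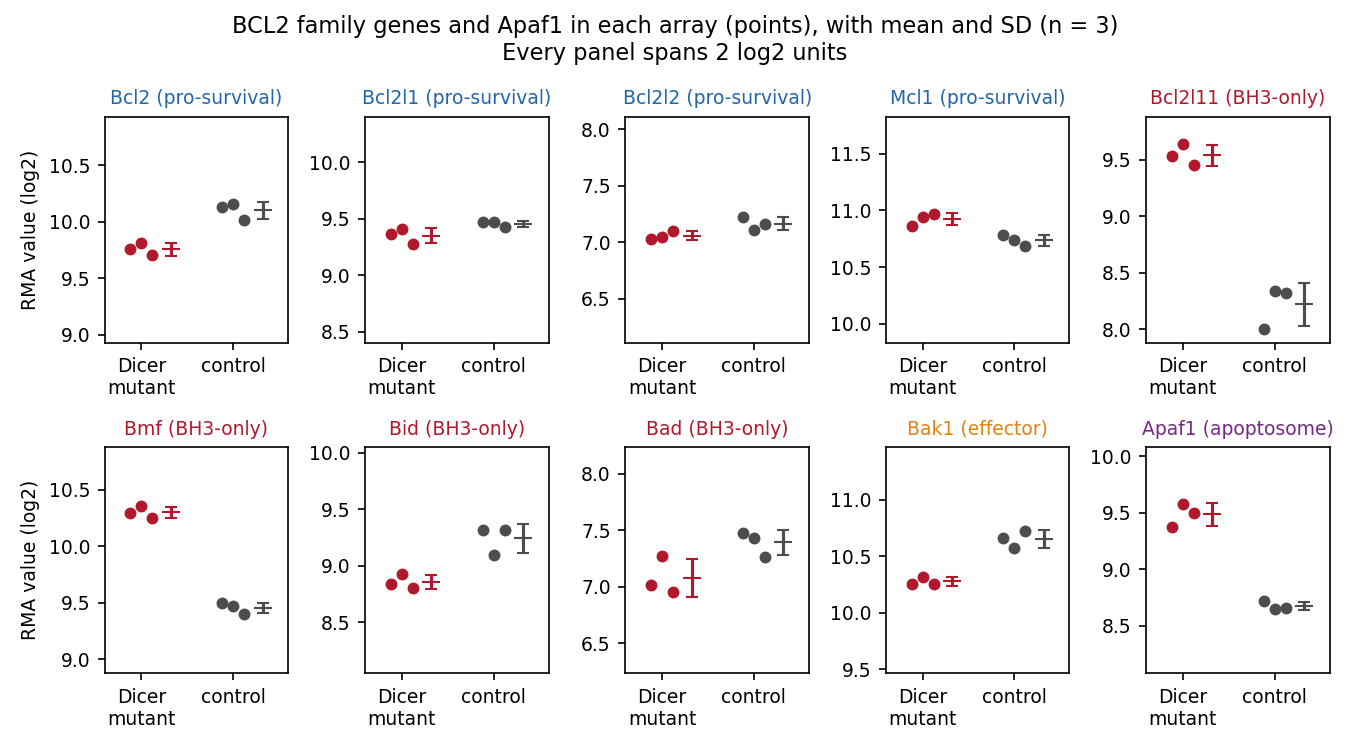
Each panel plots 1 gene, with the RMA value (log2) of the 3 Dicer mutant arrays on the left and the 3 control arrays on the right as points and the mean and SD beside them. Bcl2l11, Bmf and Apaf1 sit higher in all mutant arrays, Bcl2, Bid and Bak1 sit lower, and the Bad values of the groups overlap.

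Among the pro-survival genes, Bcl2, which encodes the founding member of the family, was lower in the mutant cells. It read 9.76, 9.82 and 9.70 in mutant replicates 1 to 3, against 10.13, 10.16 and 10.02 in control replicates 1 to 3. The groups did not overlap, and the gap between their means exceeded the SD within either group, 0.06 in mutant and 0.07 in control arrays. The log2 fold change was -0.34 (95% interval -0.49 to -0.20, limma adjusted p = 0.00526), which puts Bcl2 in mutant cells at 78.8% of its control signal.

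Mcl1, a pro-survival protein with a short half-life, moved the other way by a small amount. It read 10.86, 10.94 and 10.97 in mutant replicates 1 to 3, against 10.78, 10.74 and 10.69 in control replicates 1 to 3. The groups did not overlap, but the nearest arrays, mutant replicate 1 and control replicate 1, lay close together. The log2 fold change was 0.19 (95% interval 0.05 to 0.32, limma adjusted p = 0.0484). This call was lost when any 1 of the 6 arrays was left out (adjusted p of 0.0564 without control replicate 1 to 0.141 without mutant replicate 3).

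Bcl2l1 encodes the long pro-survival form BCL-XL and, by splicing, a short pro-death form, which 1 probe set cannot tell apart. It read 9.36, 9.41 and 9.28 in mutant replicates 1 to 3, against 9.47, 9.47 and 9.42 in control replicates 1 to 3. Bcl2l2, which encodes BCL-W, read 7.03, 7.05 and 7.11 in mutant replicates 1 to 3, against 7.22, 7.11 and 7.16 in control replicates 1 to 3. For both genes every mutant array lay below every control array, though mutant replicate 3 and control replicate 2 of Bcl2l2 were equal at 2 decimals. Neither gene passed: both had a log2 fold change of -0.11 with a 95% interval of -0.24 to 0.03, and limma adjusted p of 0.223 for Bcl2l1 and 0.225 for Bcl2l2.

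Over the 4 pro-survival genes, 1 was higher, 1 lower and 2 did not pass, and the median log2 fold change was -0.11, against -0.05 over all genes.

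The BH3-only genes carried the largest change of the 10. Bcl2l11, which encodes BIM, a BH3-only protein that binds every pro-survival member named here, read 9.53, 9.64 and 9.45 in mutant replicates 1 to 3, against 8.00, 8.34 and 8.32 in control replicates 1 to 3. The groups were separated by more than 1 log2 unit, and control replicate 1 was the lowest array. The signal was 2.50-fold higher in the mutant cells (log2 fold change 1.32, 95% interval 1.09 to 1.55, limma adjusted p = 0.000117). This was the 62nd largest rise of 19296 genes, and only 0.746% of all genes passed with a rise of at least 2-fold. The splice forms of BIM differ in activity and were not told apart by the single probe set.

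Bmf encodes a BH3-only protein that is held at the actin cytoskeleton and is known for death after loss of attachment. It read 10.30, 10.35 and 10.25 in mutant replicates 1 to 3, against 9.50, 9.47 and 9.40 in control replicates 1 to 3. Every mutant array lay above every control array, with an SD of 0.05 in each group. The signal was 1.80-fold higher in the mutant cells (log2 fold change 0.84, 95% interval 0.71 to 0.98, limma adjusted p = 7.1e-05), the 226th largest rise of all genes.

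Bid and Bad, the other BH3-only genes among the 10, were lower. Bid encodes the protein that links death receptors to mitochondria once caspase-8 has cut it, and it read 8.84, 8.93 and 8.81 in mutant replicates 1 to 3, against 9.32, 9.10 and 9.32 in control replicates 1 to 3. The groups did not overlap, with control replicate 2 nearest to the mutant arrays. The log2 fold change was -0.38 (95% interval -0.56 to -0.21, limma adjusted p = 0.00787).

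Bad encodes a BH3-only protein that survival kinases inactivate by phosphorylation. It read 7.02, 7.27 and 6.95 in mutant replicates 1 to 3, against 7.48, 7.43 and 7.26 in control replicates 1 to 3. Mutant replicate 2 overlapped with control replicate 3, and all values lay below the median brightness of 7.52. The log2 fold change was -0.31 (95% interval -0.54 to -0.09, limma adjusted p = 0.0476). The call was lost without mutant replicate 1 or 3 or control replicate 1 or 2, with adjusted p of 0.129 to 0.144, and with quantile normalization or median centring of the arrays, with adjusted p of 0.0586 and 0.0612.

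Bak1 encodes BAK, the effector that forms pores in the mitochondrial membrane. It read 10.26, 10.32 and 10.26 in mutant replicates 1 to 3, against 10.66, 10.58 and 10.73 in control replicates 1 to 3. The groups did not overlap, and the log2 fold change was -0.38 (95% interval -0.52 to -0.24, limma adjusted p = 0.00302). The gene of the other main effector, Bax, was not analysed here.

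Apaf1, the scaffold of the apoptosome, acts below the mitochondria and is not itself a BCL2 protein. It read 9.38, 9.58 and 9.50 in mutant replicates 1 to 3, against 8.72, 8.65 and 8.66 in control replicates 1 to 3. Every mutant array lay well above every control array. The signal was 1.75-fold higher in the mutant cells (log2 fold change 0.81, 95% interval 0.66 to 0.96, limma adjusted p = 0.000156), the 252nd largest rise. Bcl2l11, Bmf and Apaf1 are thus all among the 2.87% of genes that passed with a rise of at least 1.5-fold. None of the 4 genes that fell was among the 2.11% that passed with a decrease of at least 1.5-fold.

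**Figure D2:**
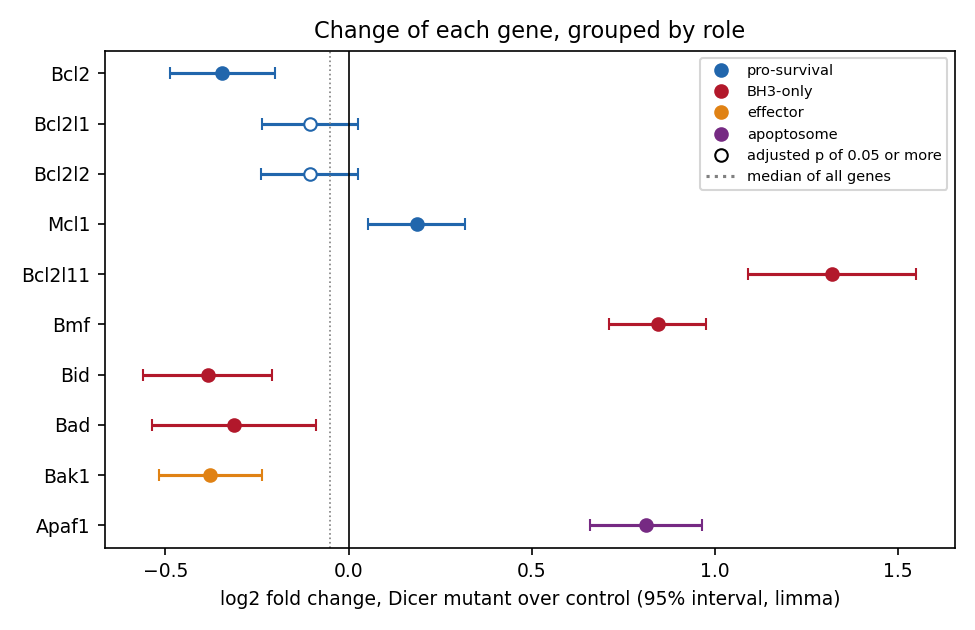
Points give the log2 fold change of each gene (x axis, Dicer mutant over control) with its 95% interval from limma, coloured by role, and open points did not pass an adjusted p of 0.05. The intervals of Bcl2l11, Bmf and Apaf1 lie above 0.65, and the intervals of Bcl2, Bid, Bad and Bak1 lie below 0.

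Set side by side, the pro-death genes did not move as a class. Of the 6, 3 were higher and 3 lower, with log2 fold changes from -0.38 (Bid) to 1.32 (Bcl2l11) and a median of 0.25. The BH3-only genes among the 10 split evenly, with 2 higher and 2 lower. The range of log2 fold changes was 1.70 among pro-death genes and 0.53 among pro-survival genes.

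To set both classes against each other, each gene was expressed per array as its deviation from its own control mean, since levels of different probe sets cannot be compared. The mean deviation of the 6 pro-death genes was 0.28, 0.41 and 0.26 in mutant replicates 1 to 3, and between -0.01 and 0.01 in the control arrays. That of the 4 pro-survival genes was -0.11, -0.06 and -0.10 in mutant replicates 1 to 3, and between -0.04 and 0.04 in the control arrays. The pro-death mean minus the pro-survival mean was therefore 0.39, 0.47 and 0.36 in the mutant arrays, against -0.03, -0.02 and 0.05 in control replicates 1 to 3. The average was 0.41 ± 0.05 in mutant arrays and 0 ± 0.04 in control arrays (SD, n = 3 each). No p-value is given for this score because its genes were chosen with results known. The difference was 0.21 without Bcl2l11 and 0.31 without Apaf1.

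Within the pro-death class, Bcl2l11, Bmf and Apaf1 together deviated by 0.95, 1.07 and 0.95 in mutant replicates 1 to 3, against -0.05 to 0.03 in the control arrays. Bid, Bad and Bak1 deviated by -0.39, -0.26 and -0.43 in mutant replicates 1 to 3, against -0.06 to 0.06 in the control arrays. These groups of 3 were formed after their values were seen. Mutant replicate 2 was the highest mutant array in both groups of 3.

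**Figure D3:**
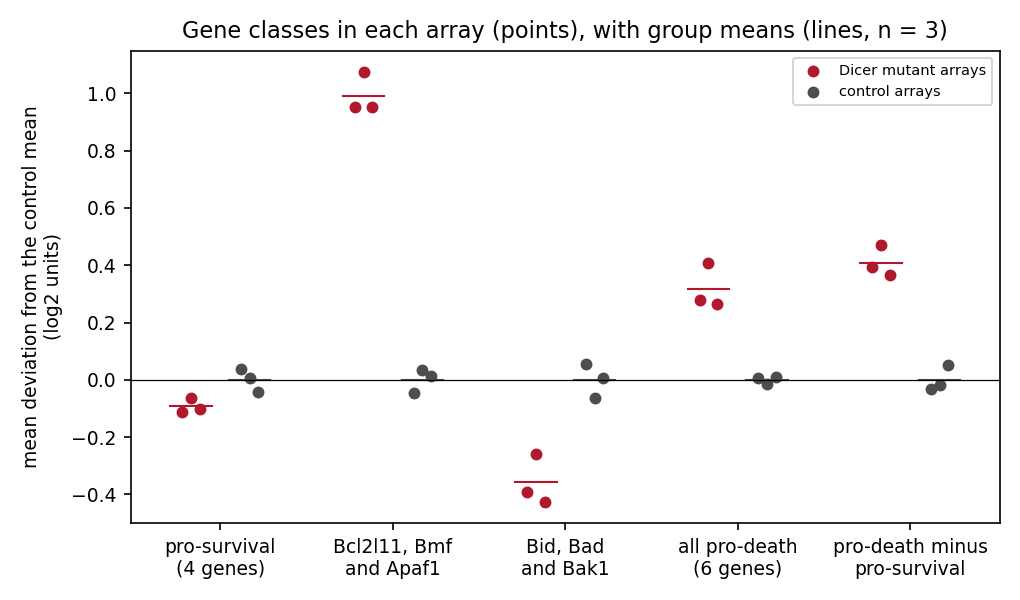
The y axis gives the mean deviation of each gene class from its control mean in log2 units, with 1 point per array and a line at each group mean, Dicer mutant left of control. The mutant arrays lie near 1 for Bcl2l11, Bmf and Apaf1, below 0 for Bid, Bad and Bak1, and between 0.36 and 0.47 for the difference of pro-death and pro-survival genes.

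Transcript ratios of single pairs of these genes showed the same unevenness. The log2 ratio of Bcl2l11 to Bcl2, as a deviation from its control mean, was 1.66 ± 0.04 in mutant arrays and 0 ± 0.22 in control arrays (SD, n = 3 each). That of Bcl2l11 to Mcl1 was 1.13 ± 0.11 in mutant arrays and 0 ± 0.23 in control arrays (SD, n = 3 each). Bak1 and Bcl2 fell by nearly the same amount, and their ratio deviated by -0.03 ± 0.03 in mutant arrays and 0 ± 0.15 in control arrays (SD, n = 3 each). Against Mcl1 the balance differed, since Bak1 fell and Mcl1 rose (log2 fold changes of -0.38 and 0.19). These pairs were chosen after the values were seen.

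The promoters of the 3 genes that rose most are shown, a choice made after their values were seen. Each window is RefSeq sequence of GRCm38.p6, from 250 bases before to 50 bases after an annotated start, in the direction of the gene. Bcl2l11 has 2 windows, at chr2:128125788-128126087 and chr2:128127325-128127624 on the plus strand. The most upstream of the 3 Bmf windows lies at chr2:118549637-118549936 on the minus strand. The Apaf1 window lies at chr10:91082694-91082993 on the minus strand. Capitals mark, on either strand, the FoxO motif GTAAACA, the CCAAT box and the GC box GGGCGG.
Bcl2l11, upstream start: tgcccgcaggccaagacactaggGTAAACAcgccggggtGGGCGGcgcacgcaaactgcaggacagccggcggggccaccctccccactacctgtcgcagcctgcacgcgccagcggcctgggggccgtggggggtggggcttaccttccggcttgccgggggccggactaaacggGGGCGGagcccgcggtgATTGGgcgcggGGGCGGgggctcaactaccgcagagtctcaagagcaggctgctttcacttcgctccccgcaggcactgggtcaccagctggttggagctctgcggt
Bcl2l11, downstream start: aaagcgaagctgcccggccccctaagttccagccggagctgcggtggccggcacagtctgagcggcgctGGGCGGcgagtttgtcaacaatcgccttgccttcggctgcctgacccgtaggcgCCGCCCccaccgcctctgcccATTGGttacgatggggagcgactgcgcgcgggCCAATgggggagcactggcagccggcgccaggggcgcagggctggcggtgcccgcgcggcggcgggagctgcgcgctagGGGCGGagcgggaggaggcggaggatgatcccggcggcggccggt
Bmf, upstream start: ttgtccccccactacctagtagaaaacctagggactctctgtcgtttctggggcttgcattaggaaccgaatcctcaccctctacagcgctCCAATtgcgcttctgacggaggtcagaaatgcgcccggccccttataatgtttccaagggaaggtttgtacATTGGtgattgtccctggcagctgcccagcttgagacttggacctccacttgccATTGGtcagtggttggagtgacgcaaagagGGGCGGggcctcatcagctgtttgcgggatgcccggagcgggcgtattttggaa
Apaf1: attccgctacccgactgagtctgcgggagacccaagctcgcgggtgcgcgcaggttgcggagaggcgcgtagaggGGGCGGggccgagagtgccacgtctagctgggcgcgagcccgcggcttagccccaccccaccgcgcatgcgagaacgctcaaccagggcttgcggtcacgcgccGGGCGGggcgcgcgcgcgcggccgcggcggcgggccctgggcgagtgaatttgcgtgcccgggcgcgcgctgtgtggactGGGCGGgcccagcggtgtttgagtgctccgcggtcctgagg

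All 10 genes had at least 1 window, 16 in all, and were searched on both strands, with 0 overlaps between matches of different motifs. The FoxO motif was found in 1 of the 16, the upstream Bcl2l11 window, at positions -227 to -221 from the start, and 3.65% of all 32851 windows held it. The E2F motifs TTTCCCGC and TTTGGCGC were in 0 of the 16, against 1.56% of all windows. The GC box was in 9 of the 16, against 35.7% of all windows. It stood in windows of Bcl2, Bcl2l2, Mcl1, Bid and Bad as well as of Bcl2l11 and Apaf1, and in 1 of the 3 Bmf windows. The CCAAT box was in 5 of the 16, against 37.4% of all windows. It stood in both Bcl2l11 windows, in 2 of the 3 Bmf windows and in 1 of the 2 Bad windows. A p53 half-site was in 1 of the 16, the most downstream Bmf window, against 8.36% of all windows. The E-box CACGTG and the TATA box TATAAA were in 0 of the 16, against 7.15% and 13.6% of all windows. A match of letters is a description of the window and not evidence of binding.

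The rest of the pathway was followed in lists of its other genes. Counts in these lists stand beside the 25.8% of all genes that passed, and 39.6% of genes above the median brightness. Of 12 further BCL2 family genes, 0 passed in limma's test, 0 of them at an unadjusted p under 0.05, and their log2 fold changes ran from -0.20 to 0.17. Bbc3, which encodes the BH3-only p53 target PUMA, read 7.49, 7.59 and 7.57 in mutant replicates 1 to 3, against 7.50 in each control array (log2 fold change 0.05, limma adjusted p = 0.545). Pmaip1, which encodes the p53 target NOXA, and Bik, a BH3-only gene of the endoplasmic reticulum, had the smallest p of this list, with log2 fold changes of 0.12 and 0.17 and limma adjusted p of 0.151 and 0.176. Of these 12 genes, 8 lay above the median brightness.

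Among 17 partners and turnover factors of BCL2 proteins, 2 rose, 3 fell and 12 did not pass, with a median log2 fold change of -0.01. Dynll2, a dynein light chain that binds BMF, fell with a log2 fold change of -0.30 (limma adjusted p = 0.00773). Its paralog Dynll1, which binds BIM and was named after its values were seen, did not pass (log2 fold change -0.02, limma adjusted p = 0.827). Usp9x, a deubiquitinase that stabilises MCL1, rose with a log2 fold change of 0.27. Fbxw7, the other gene of this list that rose, had one of 0.20 (limma adjusted p = 0.0322) and was named after its values were seen. The net effect on MCL1 turnover was not tested. Becn1, an autophagy protein that BCL2 binds, and Pim1, a kinase that phosphorylates BAD, had log2 fold changes of -0.34 and -0.32 and fell.

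Downstream of the mitochondria, 0 of 8 caspase genes passed in limma's test, 1 of them at an unadjusted p under 0.05. That gene, Casp2, read 10.81, 10.83 and 10.82 in mutant replicates 1 to 3, against 10.67, 10.70 and 10.68 in control replicates 1 to 3 (log2 fold change 0.14, limma adjusted p = 0.0756). Casp14, a caspase of the epidermis, had the next smallest p, with a log2 fold change of -0.15. Casp9, which the apoptosome activates and which was named after its values were seen, had a log2 fold change of -0.11 (95% interval -0.24 to 0.03, limma adjusted p = 0.235).

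Of 7 genes of mitochondrial release and shape, Opa1, which keeps the cristae closed, rose (log2 fold change 0.25) and Diablo, whose product blocks inhibitors of apoptosis, fell (-0.27), while the other 5 did not pass. Of 6 inhibitor of apoptosis genes, 1 fell and 5 did not pass. The one that fell was Birc5, whose product survivin also acts in mitosis (log2 fold change -0.44, limma adjusted p = 0.0039). Of 9 genes of the death receptor pathway, 2 rose, 4 fell and 3 did not pass. The ligand Tnfsf10 (TRAIL) and its receptor Tnfrsf10b rose, with log2 fold changes of 0.79 and 0.37, and the receptors Tnfrsf1a and Fas fell, with log2 fold changes of -0.28 and -0.34. Tnfsf10 and Fas lay below the median brightness in every array.

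Of 12 transcriptional regulators of these genes, 1 rose, 1 fell and 10 did not pass. E2f3, of the E2F family whose members activate Apaf1, rose with a log2 fold change of 0.35, and Myc, which represses Bcl2, fell with one of -0.34. E2f1, of the same family as E2f3, did not pass (log2 fold change -0.17, limma adjusted p = 0.178). It was lower in every mutant array and was named after its values were seen. Trp53 and Foxo3, also listed as regulators, were not analysed here. Foxo1, of the family that activates Bcl2l11, did not pass (log2 fold change -0.20, limma adjusted p = 0.0739, named after its values were seen).

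**Figure D4:**
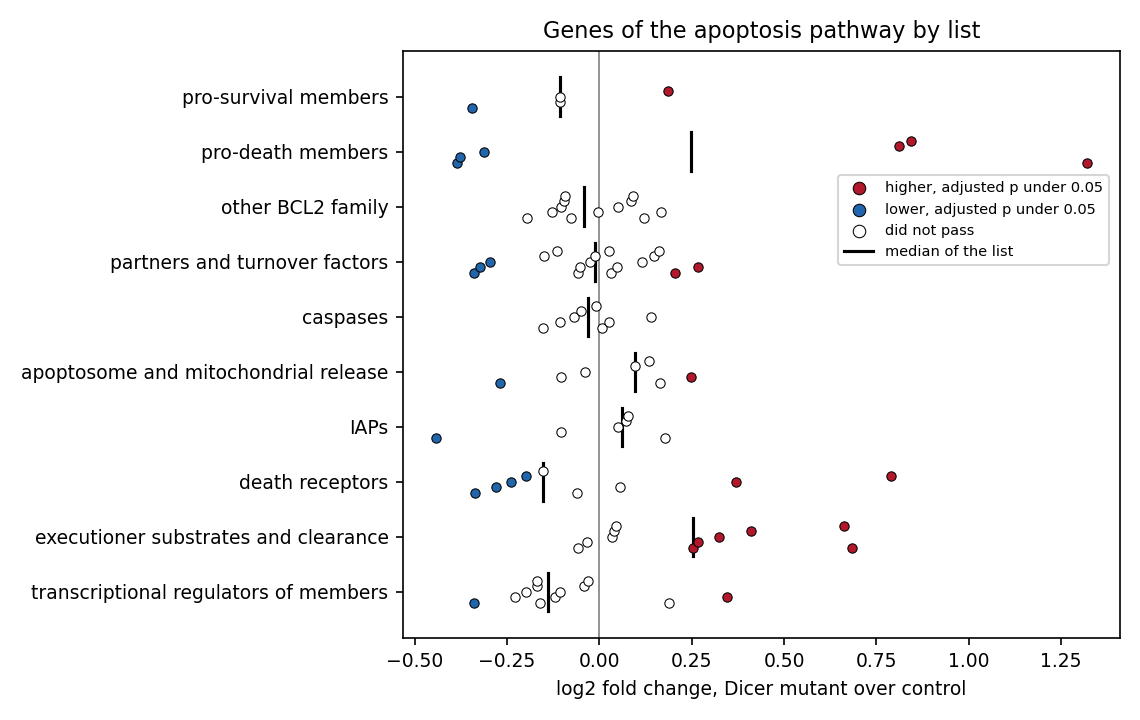
Each point is a gene, placed by its log2 fold change (x axis, Dicer mutant over control) in the row of its list, red or blue where it passed an adjusted p of 0.05 and white otherwise, with a bar at the median of the list. The 3 pro-death genes on the right stand beyond the other BCL2 family genes, the caspases and the IAPs (inhibitor of apoptosis genes), and the list of executioner substrates and clearance genes has its median at 0.25.

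Markers of other cells and of cell handling moved with the groups in part. Here too, 25.8% of all genes passed, and 39.6% of genes above the median brightness. Of 9 cap mesenchyme markers, 2 rose and 1 fell, and their summed signal on the linear scale was 2402 to 2544 in mutant arrays, against 1310 to 1322 in control arrays. Six2 and Tmem100 rose, with log2 fold changes of 3.29 and 0.82, and Osr1 fell with one of -0.67. Without Six2, the other 8 markers summed to 1133 to 1186 in mutant arrays, against 1154 to 1204 in control arrays, a sum added after the data were seen. Of these 8, 6 had a log2 fold change below 0. Eya1, Gdnf, Itga8, Meox1 and Tmem100 lay below the median brightness in every array. Of 11 dissociation response genes, 7 fell and 0 rose, with a summed signal of 18887 to 19200 in mutant arrays, against 21494 to 26513 in control arrays. Of 7 leukocyte markers, 1 fell and 0 rose, with a summed signal of 443 to 480 in mutant arrays, against 469 to 522 in control arrays, and none lay above the median brightness. Of 9 early nephron and tubule markers, 2 rose and 2 fell. Their summed signal was 4067 to 4393 in mutant arrays, against 3504 to 3861 in control arrays. Lrp2 rose and Slc34a1 fell, with log2 fold changes of 1.05 and -0.69. Of 3 podocyte markers 1 fell. Of 8 stroma, 6 endothelium and 5 erythroid markers 0 passed in limma's test, with 1 stroma marker (Tcf21) and 1 endothelium marker (Emcn) at an unadjusted p under 0.05, both named after their values were seen. Where these lists moved, they did so with the same groups as the 10 genes, and their part in the results was not tested.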

How the data were processed

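The samples were 3 Dicer mutant and 3 control arrays of sorted ureteric bud cells. The authors deposited log2 RMA values, 1 for each probe set on each array. The submitters' processing notes name RMA and affy. Versions, build and filters were not given in the sources used. RMA normalises arrays to each other before probes are summarised, which can hide a shift shared by most transcripts, and it compresses changes of dim probe sets. The deposited values still differed between arrays, with medians of 7.47 to 7.54. No 2 arrays shared more than 22 identical values. Arrays have no depth, and their number limits the precision.

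Of 23309 probe sets, 20728 had 1 gene symbol, 1174 several and 1407 none in the platform annotation. Per gene the single-symbol probe set with the highest mean was kept, leaving 19296 genes, with no intensity filter. Gene IDs matched 19255 of them to RefSeq (GRCm38.p6), with 0 symbols changed. Genotype was the only term of a linear model per gene (lmFit and eBayes of limma 3.58.1, run in R 4.3.3). Tests were two-sided and p-values adjusted by Benjamini-Hochberg over all genes. The model was tested on simulated data with known changes. Figures used matplotlib 3.10.9.

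The members, gene lists and tests were chosen with earlier results of these data known. The text names the 10 genes, Dicer1, Bax and Bbc3. Of a pathway list it names up to 4 called genes, taken in order of p, or 2 genes if none was called. Of a marker list that moved it names up to 2, taken by size of change. Dynll1, Fbxw7, Casp9, E2f1, Foxo1, Eya1, Gdnf, Itga8, Meox1, Osr1, Tcf21, Emcn, Dffa, Dffb, Parp1, Lmnb1 and Havcr1 are exceptions, chosen after their values were seen. Some listed genes, Bax, Trp53 and Foxo3 among them, were not analysed here. Alternatives tried were a replicate block, each array left out, 2 other normalizations, dim genes left out, the mean of probe sets, another variance model, array weights, every probe set, other thresholds and other summaries.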

Additional observations from a re-analysis of the deposited data

How the results depend on the processing

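Directions of all 10 genes were the same under every alternative run. Bcl2l11, Bmf, Apaf1, Bcl2, Bid and Bak1 passed, and Bcl2l1 and Bcl2l2 did not, in each of 14 alternatives (13 for Bcl2l2, which lies among the dim genes left out in 1). Bad was called in 6 of 13 alternatives and Mcl1 in 5 of 14. Leaving out 1 array gave 6 to 7 genes past the threshold, against 8, and 3460 to 5130 genes over the whole table, against 4975. At an adjusted p of 0.01, 2790 genes over the whole table passed, and 6 of the 10. Without dim genes, which removes Bad and Bcl2l2, the median of pro-death genes was 0.81 and the pro-death minus pro-survival difference 0.53. That difference was 0.46 with BH3-only genes alone, 0.35 with medians over genes, 0.31 without Apaf1 and 0.21 without Bcl2l11. Over the 6 arrays left out in turn it ran from 0.38 to 0.43. Centring each array on its median gave a median of -0.071 for pro-survival genes, with 2696 higher and 2241 lower genes over the whole table. Without Dicer mutant replicate 1, 1764 genes were lower, against 2690.

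With the replicate number as a block, 7 of the 10 genes passed and Mcl1 did not (adjusted p = 0.135), and 3603 genes passed over the whole table. Same-numbered arrays did not deviate together (r of -0.19, -0.10 and -0.22 over genes), so the numbers were not taken to pair the samples.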

Other observations

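Among genes linked to the late steps of cell death and to clearance, some rose in the mutant cells. Of 11 genes of executioner substrates and clearance, 6 rose, 0 fell and 5 did not pass in limma's test, with a median log2 fold change of 0.25, against -0.05 over all genes. Of all genes, 11.8% were called higher, and of genes above the median brightness, where 9 of the 11 lie, 19.3%. Axl, a receptor that engulfing cells use to bind phosphatidylserine through a bridging ligand, read 9.25, 9.37 and 9.19 in mutant replicates 1 to 3, against 8.68, 8.54 and 8.60 in control replicates 1 to 3 (log2 fold change 0.66, limma adjusted p = 0.000423). Mfge8, a secreted bridging protein, read 10.27, 10.58 and 10.32 in mutant replicates 1 to 3, against 9.73, 9.64 and 9.76 in control replicates 1 to 3 (log2 fold change 0.68, limma adjusted p = 0.00114). For both genes every mutant array lay above every control array. Anxa5, which binds phosphatidylserine, and Rock1, the kinase behind membrane blebbing, rose with log2 fold changes of 0.25 and 0.32. The 5 genes that did not pass, Dffa, Dffb, Parp1, Lmnb1 and Havcr1, named after their values were seen, had log2 fold changes of -0.06 to 0.04.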
